A study of Drosophila melanogaster with 12 samples.

Results

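The level of every mRNA in *Drosophila melanogaster* embryos was compared between 6 to 12 h (T4) and 12 to 18 h (T5) after egg laying. The genes described are the 10498 of the 14977 in the deposited table that reached 1 FPKM (a read level corrected for gene length and library size) at T4, at T5 or at both, and the 4479 genes below 1 at both timepoints were left out. The lowest level kept was that of *CR43845*, with 0.09 FPKM at T4 and 1.002 at T5 from 2 and 14 reads. The change of a gene is log2((T5 + 1)/(T4 + 1)), so that a value of 1 is a doubling, and genes past 2-fold are called higher or lower at T5. At that threshold *CIAPIN1* lay just past it (31.3 and 63.6 FPKM) and *Sox102F* just within it (4.14 and 9.28).

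The study made 1 mRNA-seq and 1 miCLIP library for each of 6 timepoints of embryogenesis, where T1 began at egg laying and ended at 45 min, T2 ended at 90 min, T3 at 6 h and T6 at 24 h. Both groups compared here are mass-collected whole embryos with no mutation, transgene or agent, of poly(A) RNA sequenced with a stranded kit. The growth protocol and the study's methods name the strain as Canton S, whereas the strain entry of the sample records names yw. With 1 library a timepoint, no difference between T4 and T5 has a replicate, and every value describes these libraries.

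These 6 h windows cover the passage from the formation of organs to the terminal differentiation of the embryo. By the end of the T4 window the last rounds of cell division in most tissues are over and the organ primordia are in place. During the T5 window the epidermis secretes the larval cuticle, muscles acquire sarcomeres and begin to contract, the gut forms its chambers, and neurons build synapses and ion channels. A pulse of the steroid hormone ecdysone falls within this part of embryogenesis. In whole embryos, a change in the number of cells of a type and a change in RNA per cell cannot be told apart.

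On the deposited scale the change was large and asymmetric. Of the 10498 genes, 3581 (34.1%) were over 2-fold higher at T5, 982 (9.35%) were over 2-fold lower, and 5935 (56.5%) stayed within 2-fold. Past 4-fold there were 1935 higher (18.4%) and 202 lower genes (1.92%). Past 16-fold the counts were 569 higher and 21 lower, past 64-fold 198 and 0, and 42 genes were over 256-fold higher. The median log2 change was 0.35, with quartiles of -0.44 and 1.51. Of the genes tested, 1788 were below 1 FPKM at T4 and at or above it at T5, and 281 changed in the other direction. Across genes the levels at T4 and T5 were related with a Spearman correlation of 0.62 (10498 genes, which share the library factors and the gene lengths).

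The balance of higher and lower genes depended on how the libraries were scaled. T4 had 25485022 and T5 24660650 reads on genes, but the summed FPKM of all genes was 455696 at T4 and 782408 at T5, and a single read was worth 1.57 times more FPKM at T5. On the deposited scale 78.5% of the genes past 2-fold were higher at T5. That share was 62.5% when each library was divided by its upper quartile, 60.5% when the changes were centred on their median, 51.99% with libraries scaled to equal reads on genes and 45.4% with each library scaled to an equal sum. Without the pseudocount, a scaling of the libraries shifts every gene by the same amount (-0.78 on the log2 scale for an equal sum). With the pseudocount, genes at low levels shift by other amounts. With an equal sum the median of oxidative phosphorylation genes went from 1.39 to 0.62, and that of odorant-binding protein genes from 1.88 to 1.98. Counts past 2-fold thus depended on the scale in lists with small changes. For many of these lists the count with an equal sum is given beside that on the deposited scale. All medians of gene lists given here are on the deposited scale and can be read against the 0.35 of all genes. Counts on that scale can be read against the 34.1% of all genes higher and the 9.35% lower. Counts with an equal sum have another base, of 2721 genes higher and 3275 lower among the 10498.

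The genes over 4-fold higher made up a large share of the mRNA pool at T5. They were chosen by their change from T4 to T5, so a rise of their sum was fixed in advance, and the values give its size. Their summed FPKM was 13065 at T4 and 257464 at T5, or 2.87% and 32.9% of the library, and their share of the reads was 3.33% and 31.4%. All other genes together had 442630 at T4 and 524944 at T5. Structural cuticle genes accounted for 25.03% of the FPKM gained by the genes over 4-fold higher, sarcomere genes for 8.64% and the Osiris family for 3.15%. Of these 1935 genes, 73 had no read at T4 and 158 had 1 to 3 reads, so their folds at T4 rest on counting error, whereas 776 had over 100 reads at T4.

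**Figure D1:**
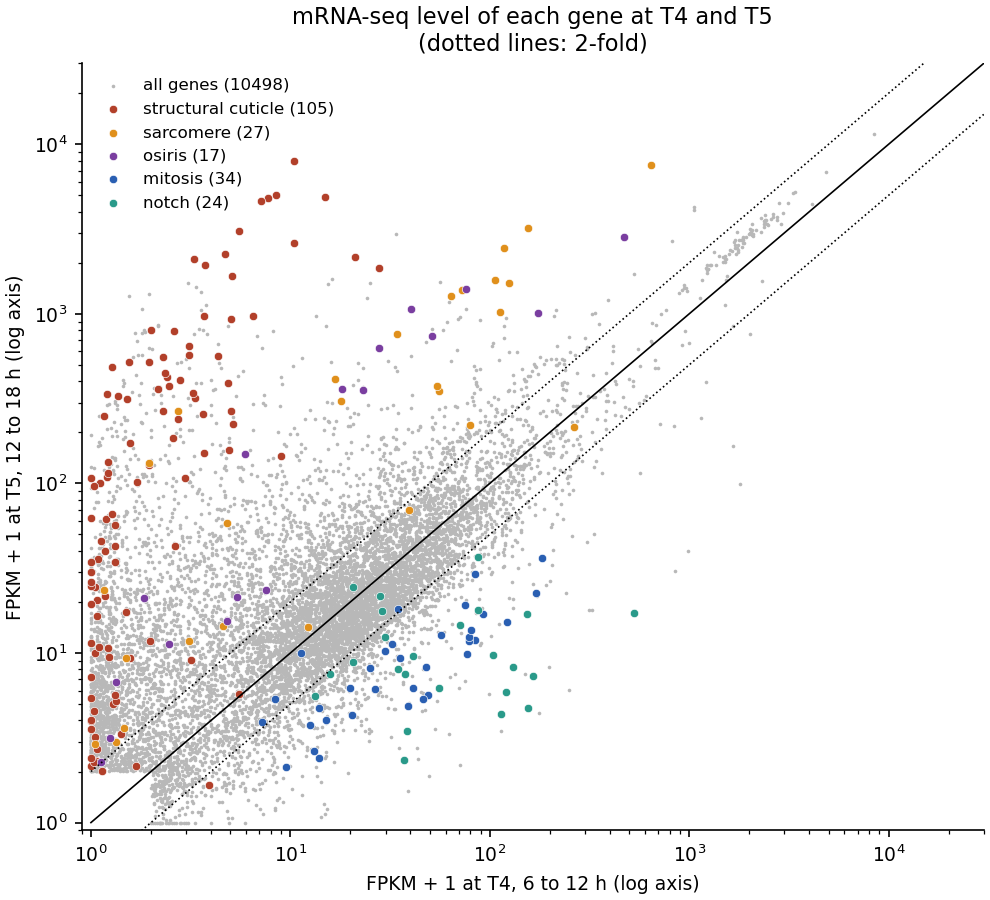
Each point is a gene, with its FPKM + 1 at T4 on the horizontal and at T5 on the vertical axis, both logarithmic; the solid line marks equal levels and the dotted lines 2-fold, and 5 gene lists are coloured (number of genes in parentheses). Of 105 cuticle genes 101 lie over 2-fold above the line, up to 7942 FPKM at T5 from 9.48 at T4 (Lcp65Ag2), while 30 of 34 mitotic and 21 of 24 Notch pathway genes lie over 2-fold below it.

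The higher and lower genes had different histories. The genes over 4-fold higher had median FPKM of 0.25, 0.05, 0.15, 0.99, 27.6 and 28.6 from T1 to T6, and 67.2% of them were below 1 FPKM at T1, T2 and T3 alike (26.3% of all 10498 genes). Only 27.8% reached 1 FPKM at T1, against 65.9% of all genes, and 96.7% were at or above 1 at T6. The study states that T1 and T2 should both reflect maternal RNA. Of the higher genes with a value at T1 or T2, however, 66.4% were over 2-fold higher at T1 than at T2 (21.6% among all genes). Whether their T1 signal is maternal RNA was not tested. The genes over 4-fold lower had medians of 8.06, 9.19, 34.3, 35.0, 4.27 and 4.56, and 72.3% of them were at or above 1 FPKM at T1. The T4 and T5 medians follow from the choice of the groups. At the timepoints not used in the choice, the medians of the higher group were below 1 FPKM from T1 to T3. The median of the lower group at these timepoints was highest at T3. Single-exon genes made up 26.0% of the genes over 4-fold lower, 12.4% of those over 4-fold higher and 12.9% of all genes with an annotated exon structure. Genes that carry only a CG number made up 58.7% of the genes over 4-fold higher, 26.7% of those over 4-fold lower and 45.2% of all genes tested.

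The 15 largest increases among genes reaching 10 FPKM were 8 structural cuticle genes and 7 genes known by a CG number. *CG15212* had 0.55 FPKM at T4 (8 reads) and 1279 at T5 (11797 reads), a log2 change of 9.69 and a ratio of 2314 with a 95% counting interval from 1174 to 5361. *Lcp65Ag2*, a larval cuticle protein gene, had 9.48 FPKM at T4 and 7942 at T5, a ratio of 837 (720 to 979). *CG13041* rose from 0.96 to 1303, *CG13051* from 0.81 to 1063, *CG17290* from 2.08 to 1529, *CG30458* from 0.66 to 772, *CG15213* from 0.84 to 802 and *CG14452* from 2.35 to 1431. Intervals are exact Clopper-Pearson intervals on the recovered reads and cover counting error only. These 7 CG genes were at or below 7.02 FPKM at every timepoint before T5, and all but *CG14452* (1843) were lower at T6 than at T5. The T6 values of the others were 43.3 (*CG15212*), 171 (*CG13041*), 43.6 (*CG13051*), 126 (*CG17290*), 51.1 (*CG30458*) and 245 (*CG15213*).

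Genes of the cuticle formed the most extreme group. The larval cuticle is a layered extracellular matrix of chitin fibres and structural proteins, many of which carry a chitin-binding Rebers and Riddiford domain (the Cpr, Lcp and Ccp84A families) or belong to the Tweedle family (Twdl). Of the 125 structural cuticle genes in the table, 105 reached 1 FPKM, and 101 of these were over 2-fold higher at T5, 1 was lower and 3 stayed within 2-fold. Their median log2 change was 5.70, against 0.35 over all genes. The summed FPKM of the family was 261, 16.7, 34.6, 215, 61425 and 54162 from T1 to T6. The lower gene was *Acp1*, named for an adult cuticle protein, with 2.89 FPKM at T4 and 0.66 at T5.

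The cuticle families differed in their level at T6, and the median change to T5 was lower in the Cpr family than in the Tweedle, Lcp and Ccp84A families. All 24 Tweedle genes tested were over 2-fold higher (median 6.45), as were all 13 Lcp genes (6.74), all 7 Ccp84A genes (6.70) and 52 of 55 Cpr genes (5.06). Summed Tweedle FPKM was 77.3 at T4, 20541 at T5 and 2290 at T6. Summed Lcp FPKM was 27.8, 18982 and 32099 at the same timepoints, and the Cpr sum was 100.4, 19899 and 19529. *TwdlM* had 7.45 FPKM at T4 (250 reads), 4997 at T5 (106895 reads) and 144 at T6. *TwdlB* had 2.27, 2091 and 81.9, and *TwdlL* had 2.75, 1941 and 68.1. *Cpr65Ea* had 13.9, 4867 and 74.8, whereas *Cpr47Eg* had 4.12, 1664 and 7379. High levels at T5 were thus followed by low levels at T6 in many Tweedle genes and by higher levels in *Lcp65Ag1*, *Lcp65Ag2* and *Lcp65Ag3* (7121, 13260 and 10234 at T6, from 4642, 7942 and 4814 at T5). The last 3 are near-identical copies, as are *Cpr65Ax1* and *Cpr65Ax2*, so reads may be shared among them and their separate values are uncertain. Some cuticle genes had no read at T4: *Lcp65Ae* had 659 reads at T5, at least 345-fold higher when T4 is set to a floor of 3 reads, and *Lcp65Aa* had 431, at least 225-fold higher.

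The enzymes and binding proteins that build the chitin matrix were higher too. Of 23 chitin genes 20 were over 2-fold higher, 0 lower, with a median of 3.28. Chitin is made from glucose by way of glutamine:fructose-6-phosphate aminotransferase, an acetylglucosamine pyrophosphorylase and chitin synthase. *Gfat1*, the aminotransferase, had 9.84 FPKM at T4 and 196 at T5. *mmy*, the pyrophosphorylase, had 28.6 and 170, and *kkv*, the epidermal chitin synthase, had 23.6 and 60.2. The chitin-binding protein gene *obst-E* changed most, from 0.56 (33 reads) to 309, a ratio of 552 (393 to 802), followed by *obst-H* from 0.81 to 41.6. The deacetylase genes *serp* and *verm*, which act on chitin in the tracheal lumen as well, were already at 110 and 210 at T4 and reached 534 and 968. The lowest changes in the list were in the chitinase gene *Cht5* (30.8 and 35.5) and in *rtv* (12.2 and 14.8), which is needed for chitin fibre organisation.

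Hardening and colouring of the cuticle use catecholamines, and 11 of the 14 tanning genes were over 2-fold higher (median 3.26, 0 lower). The tyrosine hydroxylase gene *ple* had 1.01 FPKM at T4 and 22.2 at T5, and the dopa decarboxylase gene *Ddc* had 0.26 (24 reads) and 54.5 (3156 reads), a ratio of 206 (138 to 323). *y*, which is needed for black pigment, had 0.24 and 57.0, and *yellow-h*, a member of the same family, had 1.41 and 29.0. *laccase2*, an oxidase that cross-links cuticle proteins, had 3.73 and 56.3. Changes were smaller in *Pu*, which makes the pterin cofactor of tyrosine hydroxylase (13.5 and 24.7), and in *Catsup* (80.8 and 76.0).

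Further gene families of the epidermal surface moved in different ways. The Osiris genes, a clustered family peculiar to insects and expressed in cuticle-secreting cells, had 17 of 24 members at or above 1 FPKM, and all 17 were over 2-fold higher at T5 (median 2.60). Their summed FPKM was 6.69 at T3, 896 at T4, 8654 at T5 and 58.6 at T6. *Osi6* was the most abundant, with 469, 2849 and 7.41 FPKM at T4, T5 and T6, and *Osi20* changed most, with 39.1, 1062 and 2.69. Among 13 genes of the apical matrix, which anchors the cell surface to the cuticle and shapes denticles, 5 were higher and 3 lower (2 and 4 with an equal sum). *dyl* had 31.8 at T4 and 288 at T5, and *nompA*, of the matrix over sensory cells, had 6.51 and 36.2. The zona pellucida domain genes *neo* (101 and 11.6), *tyn* (91.1 and 36.4) and *mey* (64.8 and 29.0) were lower at T5, so members of this family were on both sides, and its median (0.67) changed sign when each library was scaled to an equal sum (-0.06).

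**Figure D2:**
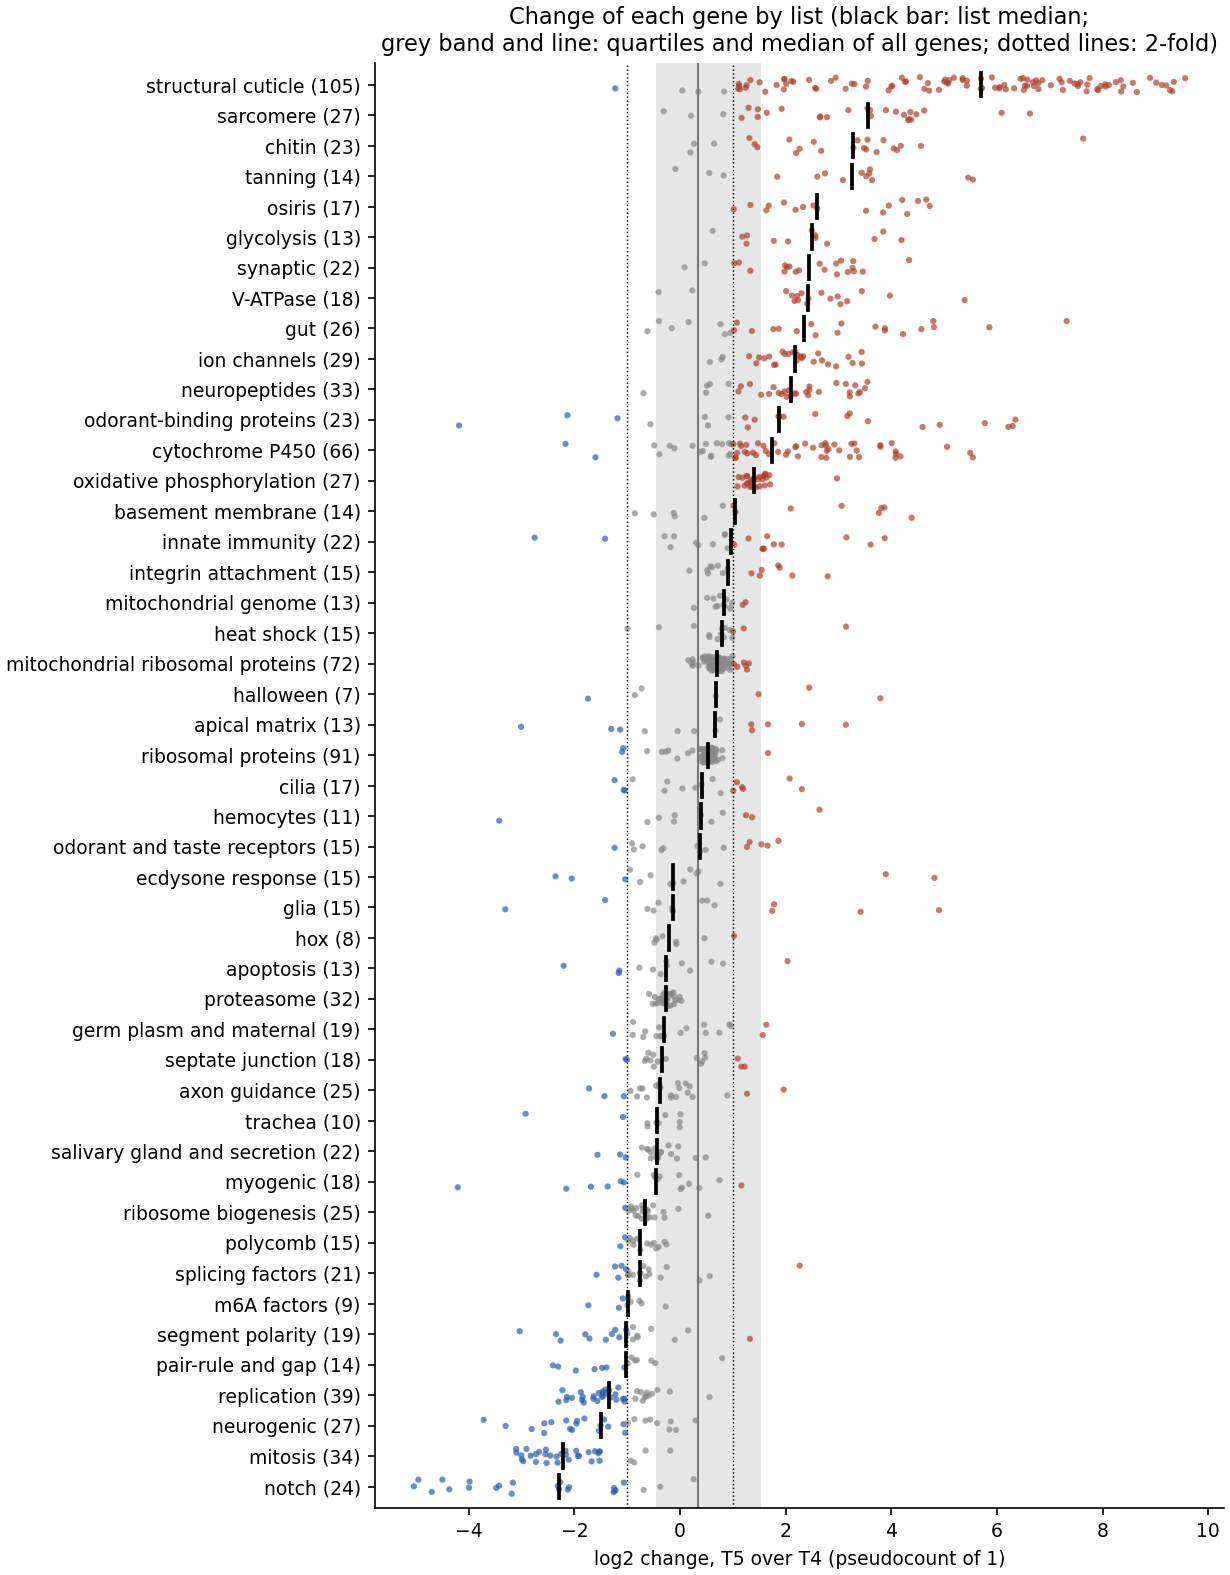
Each point is the log2 change (horizontal axis, T5 over T4, pseudocount of 1) of 1 gene in a list (rows, with the number of genes tested), red where over 2-fold higher and blue where over 2-fold lower. The black bars run from a median of 5.70 for structural cuticle genes to -2.30 for Notch pathway genes, and the grey band and line show the quartiles and median of all genes.

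Contractile genes were the next group. In the sarcomere, myosin filaments pull on actin filaments that end in Z-discs, and tropomyosin and the troponins set the calcium switch. Of 27 sarcomere genes tested 24 were over 2-fold higher and 0 lower, with a median of 3.55, and their summed FPKM was 1973 at T4, 23244 at T5 and 22340 at T6. *Act57B*, a muscle actin, had 645 at T4 and 7577 at T5, the highest T5 level of the list. *Mlc2* and *Mlc1*, the myosin light chains, had 155 and 3204 and 71.8 and 1376. The troponin T gene *up* had 117 and 2458, and the tropomyosin gene *Tm2* had 62.6 and 1270. *Mf*, which encodes the thick-filament protein myofilin, changed most, from 1.72 (263 reads) to 268 (26077 reads), a ratio of 156 (138 to 176). *Zasp66*, of the Z-disc, had 0.95 and 132, and *Prm*, paramyosin, had 15.8 and 412. Genes of the adult flight muscle were over 2-fold higher as well but at low levels: *fln* had 0.05 and 1.92 and *Act88F* had 0.33 and 2.00. *Argk*, arginine kinase, and *RyR*, the calcium release channel, lay within 2-fold (265 and 214, 11.3 and 13.2), as did the actin-capping gene *tmod*.

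The regulators that precede muscle differentiation did not share this pattern. Of 18 genes for muscle determination and myoblast fusion, 6 were over 2-fold lower (11 with an equal sum) and 1 higher (0 with an equal sum), and the median was -0.45. *lmd*, which specifies fusion-competent myoblasts, had 42.6 FPKM at T4 and 1.36 at T5, 31.3-fold lower (25.4 to 39.1). The fusion genes *sns* and *sing* had 32.7 and 9.49 and 13.6 and 2.29. *Mef2*, the transcription factor that activates contractile genes, had 29.7 and 20.8, within 2-fold. *Poxm*, a Pax gene of muscle founder cells, was the higher gene (3.71 and 9.55).

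Muscle attachment and extracellular matrix genes were intermediate. Of 15 integrin attachment genes 7 were over 2-fold higher (4 with an equal sum) and 0 lower. *Pax* (paxillin) had 23.2 and 167, *if* (an integrin alpha subunit) had 18.3 and 83.5, *stck* had 40.5 and 153, and the integrin beta subunit gene *mys* lay within 2-fold (74.9 and 124). Of 14 basement membrane genes 8 were over 2-fold higher (6 with an equal sum), 0 lower (2 with an equal sum) and 6 within 2-fold. The type IV collagen genes *Cg25C* and *vkg* had 69.6 and 959 and 39.1 and 562, *SPARC*, a collagen-binding protein secreted by blood cells and fat body, had 59.8 and 889, and *Glt* had 22.1 and 482. *Ndg* (nidogen) had 66.1 and 286, *Mmp1*, a matrix protease, 2.19 and 25.6, and *Ppn* 99.2 and 207. The laminin genes *LanA* and *LanB1* lay within 2-fold (157 and 147, 207 and 190), as did *wb*, *Pxn*, *Mmp2* and *PH4alphaEFB*.

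Of 22 synaptic genes 20 were over 2-fold higher (median 2.45), of 29 ion channel genes 26 (2.18), and of 33 genes for neuropeptides and their processing 28 (2.10), with 0 lower in any of the 3 lists. *Syt1*, the calcium sensor of vesicle release, had 1.52 FPKM at T4 and 23.7 at T5, *Syn* (synapsin) had 2.23 and 34.5, *brp*, of the active zone, had 1.33 and 18.3, and *VGlut*, the vesicular glutamate transporter, had 1.19 and 18.8. *Gad1*, which makes GABA, changed most, with 0.90 (108 reads) and 37.5 (2855 reads). At T6 *Syt1* had 27.8, *Syn* 32.4, *brp* 18.5, *VGlut* 19.1 and *Gad1* 77.9, so that *Gad1* alone of these was over 2-fold above its T5 level.

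Receptors and channels showed the same order of size. *Nmdar1*, an NMDA-type glutamate receptor, had 0.42 and 14.5, *slo*, a calcium-activated potassium channel, had 0.44 and 14.6, and *Rdl*, a GABA receptor, had 0.08 (24 reads) and 9.44 (1759 reads). The sodium channel gene *para* had 0.06 and 3.91. The channel genes within 2-fold were the glutamate receptor genes *GluRIIB* (3.59 and 5.79) and *GluRIID* (7.45 and 13.6), which act in muscle, and *sei* (2.85 and 5.73). Neuropeptide genes came up from close to no reads: *AstC* had 5 reads and 305, a ratio of 95.7 (40.6 to 297), *Proc* had 9 and 490, *Ms* had 3 and 204, and *Dh31* had 0 and 284, at least 149-fold higher. *Nplp2* differed from these in level, with 1053 at T4, 4277 at T5 and 7269 at T6.

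Of 25 axon guidance genes 2 were over 2-fold higher and 3 lower on the deposited scale (median -0.37), 1 and 7 when centred, 1 and 9 with equal reads and 1 and 13 with an equal sum. *robo3* (5.11 and 22.8) and *caps* (17.9 and 44.5) were higher, while *Nrt* (217 and 65.2), *robo2* (80.2 and 29.1) and *Sema-2a* (141 and 67.0) were lower. Of 15 glial genes 4 were over 2-fold higher (26.7%, against 34.1% of all genes), 2 lower (13.3%, against 9.35%) and 9 within 2-fold. With an equal sum 5 of the 15 were lower, against 3275 of all 10498 genes. The glial determinants *gcm* (30.9 and 2.22) and *gcm2* (3.25 and 0.59) were lower, *repo*, the general glial transcription factor, lay within 2-fold (17.8 and 12.3), and *Eaat1*, a glutamate transporter (0.23 and 35.7), *alrm* (8.45 and 100.1), *axo* (0.41 and 3.73) and *Gs2*, glutamine synthetase (46.8 and 163), were higher. Other genes of differentiated glia, such as *moody* (9.93 and 16.2), *nrv2* (106 and 142) and *wrapper* (21.7 and 19.4), lay within 2-fold.

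Neural precursor genes were lower as a group. Of 27 neurogenic genes 18 were over 2-fold lower and 0 higher, with a median of -1.503. These include the proneural transcription factors that select neural precursors and the factors that keep neuroblasts dividing. *l(1)sc* had 18.4 and 0.97, *ac* had 8.21 and 0.32, and *cato*, of sensory precursors, had 13.2 (261 reads) and 0.08 (1 read), 166-fold lower with an interval from 29.6 to 6595. The neuroblast genes *mira* (124 and 20.1), *dpn* (35.7 and 5.79), *wor* (28.9 and 6.08) and *ase* (15.7 and 2.76) were all lower. The other 9 genes lay within 2-fold, among them *grh* (22.0 and 14.6), *nub* (15.4 and 13.6) and *svp* (11.9 and 10.2).

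The Notch pathway had the lowest median of all lists (-2.30), with 21 of 24 genes over 2-fold lower and 0 higher. Notch is a receptor that, when bound by Delta or Serrate on a neighbouring cell, releases an intracellular domain that acts with Su(H) on the genes of the Enhancer of split and Bearded complexes. The receptor gene *N* had 36.6 FPKM at T4 and 6.57 at T5, and the ligand genes *Dl* and *Ser* had 33.8 and 6.997 and 19.6 and 7.85. The target genes fell furthest. *Brd* had 154 (2662 reads) and 3.73 (41 reads), 41.4-fold lower (30.4 to 57.8), *Tom* had 530 and 16.1, *BobA* 113 and 3.38, *Ocho* 120 and 4.85, and *E(spl)malpha-BFM* 164 and 6.28. The Enhancer of split repressor genes *E(spl)mgamma-HLH* and *E(spl)m7-HLH* had 130 and 7.25 and 153 and 15.965, whereas *E(spl)mbeta-HLH* had 85.8 and 35.9. *kuz* (27.6 and 16.8), *fng* (27.0 and 20.6) and *mib1* (19.5 and 23.6), which encode a protease, a glycosyltransferase and an E3 ligase of the pathway, lay within 2-fold. *BobA* belongs to a set of near-identical Bearded family copies, so its own value is uncertain.

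Segmentation genes were lower or within 2-fold. Of 14 gap and pair-rule genes 7 were over 2-fold lower and 0 higher, and of 19 segment polarity genes 10 were lower and 1 higher, with medians of -1.02 in both. With an equal sum 13 and 16 genes of these lists were lower and 0 higher. *ftz* had 5.75 and 0.27, *hb* 15.6 and 2.36 and *kni* 40.7 and 9.62, and these genes are reused in the nervous system and other tissues after segmentation. The Hedgehog receptor gene *ptc* had 59.2 and 10.8, *gsb* had 23.9 and 2.04 and *en* had 23.6 and 6.11, while *wg* (21.0 and 10.02) lay just within 2-fold and *H15* was higher (1.62 and 5.57). Of the 8 homeotic genes 7 lay within 2-fold, and *lab*, which also acts in the midgut, was higher (4.05 and 9.26). With an equal sum 4 of the 8 were lower and 0 higher.

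Of 34 genes of mitosis 30 were over 2-fold lower (median -2.21), and of 39 genes of DNA replication 27 were lower (median -1.34), with 0 higher in either list, while 4 and 12 lay within 2-fold. *stg*, the Cdc25 phosphatase that triggers mitosis in embryos, had 121 FPKM at T4 (12061 reads) and 14.3 at T5 (903 reads), 8.51-fold lower (7.95 to 9.12). *aurB* had 47.8 and 4.69, *CycA* 169 and 21.7, *CycB* 182 and 35.1 and *polo* 79.2 and 12.7. In the replicative helicase, *Mcm7* had 128 and 25.3, *Mcm5* 43.3 and 8.47 and *Mcm3* 38.2 and 7.83. *PCNA*, the sliding clamp, had 119 and 42.6. The replication genes within 2-fold included *E2f1* (43.1 and 26.0) and the ribonucleotide reductase gene *RnrL* (28.2 and 16.5).

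**Figure D3:**
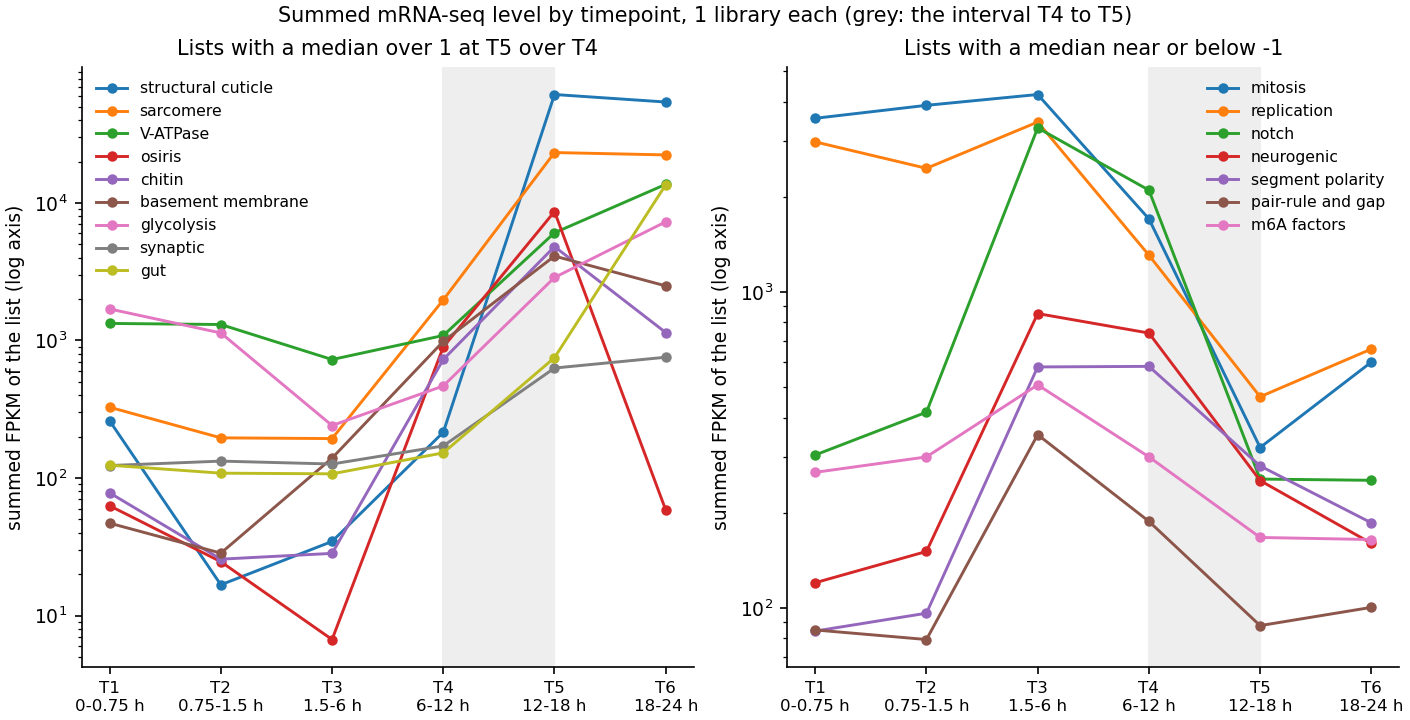
Summed FPKM of gene lists (vertical axis, logarithmic) in the 6 mRNA-seq libraries (horizontal axis), with lists that were higher at T5 on the left and lower on the right; grey marks T4 to T5. The cuticle sum goes from 215 to 61425 and the Osiris sum from 896 to 8654 and then 58.6 at T6, while the mitosis sum goes from 1701 to 321.

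Metabolic genes were higher, by amounts that differed with the pathway. Glycolysis turns glucose into pyruvate, and 12 of 13 genes were over 2-fold higher (median 2.50). *Gapdh1* had 19.7 and 378, *Gapdh2* 46.6 and 686, *Tpi* 15.6 and 212 and *Pfk* 9.31 and 59.8. *ERR*, the nuclear receptor that drives this programme in the embryo, lay within 2-fold (20.1 and 31.4). The 27 nuclear genes of oxidative phosphorylation had changes from 1.09 to 2.97 (median 1.39), and all 27 passed 2-fold on the deposited scale, but 17 did when centred, 15 with the upper quartile, 7 with equal reads and 1 with an equal sum. Among them were *ATPsynbeta* at 527 and 1726 and *Cyt-c-p*, cytochrome c, at 119 and 941. The 13 protein genes of the mitochondrial genome had a median of 0.83, with 2 over 2-fold higher. With each library scaled to an equal sum the medians of these 3 lists were 1.74, 0.62 and 0.09.

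The vacuolar ATPase, a proton pump of acidic organelles and of transporting epithelia, had 16 of 18 genes over 2-fold higher (median 2.42). Its common subunits moved together: *Vha55* had 63.1 and 525, *Vha68-2* 67.3 and 612, *Vha26* 88.3 and 473 and *Vha16-1* 213 and 1051. Less abundant paralogues differed from each other, with *Vha100-5* at 1.58 and 107, *Vha100-4* at 1.78 and 42.6 and *Vha16-5* at 1.70 and 1.04, and *Vha100-1*, the neuronal paralogue, had 49.4 and 58.3. The other 8 subunit genes of the table did not reach 1 FPKM at T4 or T5.

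Genes of protein synthesis and turnover lay mostly within 2-fold on the deposited scale. Of 91 ribosomal protein genes 88 lay within 2-fold (median 0.53), of 72 mitochondrial ribosomal protein genes 66 (0.70; the other 6 were higher, and 0 were with an equal sum), and of 32 proteasome genes 32 (-0.26). The first median changed sign with each library scaled to an equal sum (-0.25) or to equal reads (-0.07), and the second with an equal sum (-0.06), so neither has a direction that holds on every scale. *RpL41* had 8433 and 11541, and the paralogues *RpS5a* and *RpS5b* had 1729.8 and 3022 and 288 and 135. *RpL22-like*, known from germ line and eye, was higher (0.73 and 4.49). Of 25 genes of ribosome assembly 1 was over 2-fold lower on the deposited scale and 24 were below 0 (median -0.66), while 14 were over 2-fold lower when centred, 15 with the upper quartile, 21 with equal reads and 23 with an equal sum. The proteasome count of 0 lower became 4 with equal reads and 20 with an equal sum.

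Of 26 gut genes 19 were over 2-fold higher and 0 lower (median 2.35), and the summed FPKM of the list was 152 at T4, 750 at T5 and 13560 at T6. *Jon65Aiv*, a serine protease of the midgut, had 3 reads at T4 and 3321 at T5 (0.10 and 175 FPKM), a ratio of 1737 with an interval from 594 to 8427. *Jon65Aiii* had 0.60 and 91.6, and *mex1*, of midgut enterocytes, had 26.4 and 92.5. The transcription factors of the gut changed less: *fkh*, *byn* and *srp* lay within 2-fold (33.3 and 21.4, 9.36 and 8.30, 20.6 and 15.4).

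Detoxification and odour-binding genes were higher with exceptions. Of 66 cytochrome P450 genes 48 were over 2-fold higher and 2 lower (median 1.74). *Cyp4c3* had 0.37 and 63.1, *Cyp9b2* 0.26 and 55.8 and *Cyp6a23* 2.12 and 103, while *Cyp310a1* had 18.8 and 3.40 and *Cyp6d5* 89.6 and 28.9. Of 23 odorant-binding protein genes 16 were higher and 3 lower (median 1.88). *Obp83g* had 3.81 and 391, *Obp56d* 0.36 and 106 and *Obp44a* 1.67 and 198. *Obp99a* went the other way, from 1793 to 97.8, the largest loss of FPKM of any gene, with 385 at T3 and 191 at T6. The odorant co-receptor gene *Orco* reached 2.66 from 0.16, and 162 of the 177 receptor genes of smell and taste stayed below 1 FPKM.

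Of 15 genes of the ecdysone response 2 were over 2-fold higher, 3 lower and 10 within 2-fold, with 6 lower with an equal sum. Of 7 genes of ecdysone synthesis and turnover 3 were higher, 1 was lower (3 with an equal sum) and 3 were within 2-fold. *ftz-f1*, a nuclear receptor induced as the hormone falls, had 22.4, 21.1, 7.28, 3.17, 117 and 8.78 FPKM from T1 to T6, and its T5 over T4 ratio was 36.8 (34.4 to 39.5). *Cyp18a1*, which inactivates ecdysone, had 7.04, 110 and 8.81 at T4, T5 and T6, and *Eip74EF* had 0.52, 21.7 and 1.04. *Hr46*, which precedes *ftz-f1* in the hormone response, had 30.6, 6.63 and 1.77, *Eip75B* had 11.9, 5.30 and 15.8, and *Eip71CD* had 207, 39.6 and 90.7. The receptor genes *EcR* (13.7 and 17.3) and *usp* (17.9 and 18.8) lay within 2-fold. In synthesis, *phm* (1.05 and 10.2) and *spok* (0.13 and 2.16) were higher and *shd* (3.40 and 0.31), which makes the active hormone, was lower. A peak at T5 with low values on either side was therefore measured for *ftz-f1*, *Cyp18a1* and *Eip74EF*.

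Of 11 blood cell genes 3 were over 2-fold higher and 1 lower (3 and 3 with an equal sum). These shares, 27.3% and 9.09%, were near the 34.1% and 9.35% of all genes. *NimC4*, a receptor for dying cells on macrophages, had 240 and 21.5 (11.2-fold lower, 10.3 to 12.2), while *NimC1* (0.32 and 7.23) and *Hml* (0.03 and 1.45), which mark larval blood cells, were higher, and *He* had 0 and 22 reads. Tracheal genes had 0 higher and 2 lower of 10 (median -0.43), and genes of the salivary gland and secretion 0 higher and 3 lower of 22 (-0.43), with 7 and 16 lower in these lists with an equal sum. *rib*, needed for salivary gland and tracheal tubes, had 191 and 24.3, and *btl*, the tracheal FGF receptor, had 14.8 and 6.47. *CrebA*, which drives secretory genes, had 34.6 and 16.5, and *Sec61alpha*, of the translocon, lay within 2-fold (699 and 477). Of 22 genes of innate immunity 11 were over 2-fold higher and 2 lower. *Drsl5*, of the drosomycin family of immune peptides, had 305 and 44.4, whereas *Tep3* (0.90 and 26.8) and *PGRP-LB* (0.09 and 12.2) were higher. Of 13 apoptosis genes 3 were lower (8 with an equal sum) and 1 higher, with *hid* at 20.7 and 3.72 and *rpr* at 37.4 and 31.3.

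Most listed genes of RNA and chromatin regulation were below 0. All 9 genes for m6A writers, their partners and YTH readers were below 0 and 3 passed 2-fold: *Ime4*, the catalytic methyltransferase, had 14.7 and 3.71 (3.95-fold lower, 3.32 to 4.73), *Hakai* had 25.9 and 11.1 and *CG7818*, the partner of *Ime4*, had 26.4 and 12.0. The reader genes *YT521-B* and *CG6422* had 56.6 and 32.8 and 46.1 and 27.5. Of 21 splicing factor genes 5 were over 2-fold lower, with *Hrb87F* at 226 and 74.8, and *ps*, a KH-domain splicing regulator, was higher (30.4 and 150). All 15 Polycomb group genes were below 0, 2 of them past 2-fold (*ph-d*, 20.9 and 9.01; *esc*, 9.76 and 4.23), beside 9.35% of all genes. These counts rested on the scale: with an equal sum 15 of 15 Polycomb group genes, 9 of 9 m6A genes and 18 of 21 splicing factor genes were over 2-fold lower, and when centred 8, 8 and 13 were.

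Many genes past 4-fold lay next to each other. Gene order was taken from the RefSeq annotation, a later assembly than the one the reads were mapped to. Of 1924 placed genes over 4-fold higher, 48.4% had a direct neighbour over 4-fold higher, against 24.6% of all 10390 placed genes tested, and for genes over 4-fold lower the shares were 16% of 200 and 3.05%. There were 131 runs of at least 3 adjacent genes over 4-fold higher, which hold 491 genes, and 2 such runs of lower genes. The longest run held 11 genes on chromosome arm 2R, the trypsin genes from *lambdaTry* to *gammaTry* with *CG30031* and *CG30025*. Its summed FPKM was 2.77 at T4 and 309 at T5, with changes from 2.28 (*CG30031*) to 6.17 (*zetaTry*, 0.23 and 87.7). Several of these trypsin genes are near-identical copies that may share reads.

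The next runs were of cuticle and uncharacterised genes on arm 3L. A run of 9 genes from *Lcp65Ad* to *CG13297* had a summed FPKM of 11.8 and 4404, led by *Cpr65Ax1* (4.54 and 3084). It is set off by *Cpr65Aw* (0 and 1.15) from *Lcp65Af*, *Lcp65Ae* and *Cpr65Av* on the other side, which were over 4-fold higher as well. A run of 8 CG genes from *CG13049* to *CG13044* had 7.86 and 1692. A run of 7 from *CG14095* to *CG32213* had 4.10 and 2008, and all 7 of its genes lay between 188 and 454 (*CG12519*) at T5 and at or below 13.8 at T6. Its copies are similar in name and level, and sharing of reads among them was not tested.

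The longest run of lower genes lay at the Bearded complex on 3L: *CG13465*, *BobA*, *Tom*, *Brd*, *Ocho*, *CR43432* and *CG3349*. The run was set by the 4-fold rule and is not the complex itself, since *CR43432* is a non-coding RNA gene. The run had a summed FPKM of 1341 at T4 and 49.7 at T5. Its changes went from -5.04 (*Brd*) to -2.19 (*CG3349*, 3.85 and 0.06). The next genes on either side did not share the change: *DCX-EMAP* had 0.05 and 5.65, and *CG5114* had 34.5 and 23.2. On 3R, *E(spl)m3-HLH*, *E(spl)m4-BFM* and *E(spl)m5-HLH* formed a run of 3, and *E(spl)m7-HLH* and *E(spl)m8-HLH* beyond *E(spl)m6-BFM* (28.7 and 11.4) were over 4-fold lower too. In the same complex *Kaz-m1* was higher (21.6 and 67.2) and the neighbouring co-repressor gene *gro* lay within 2-fold (50.4 and 27.1).

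**Figure D4:**
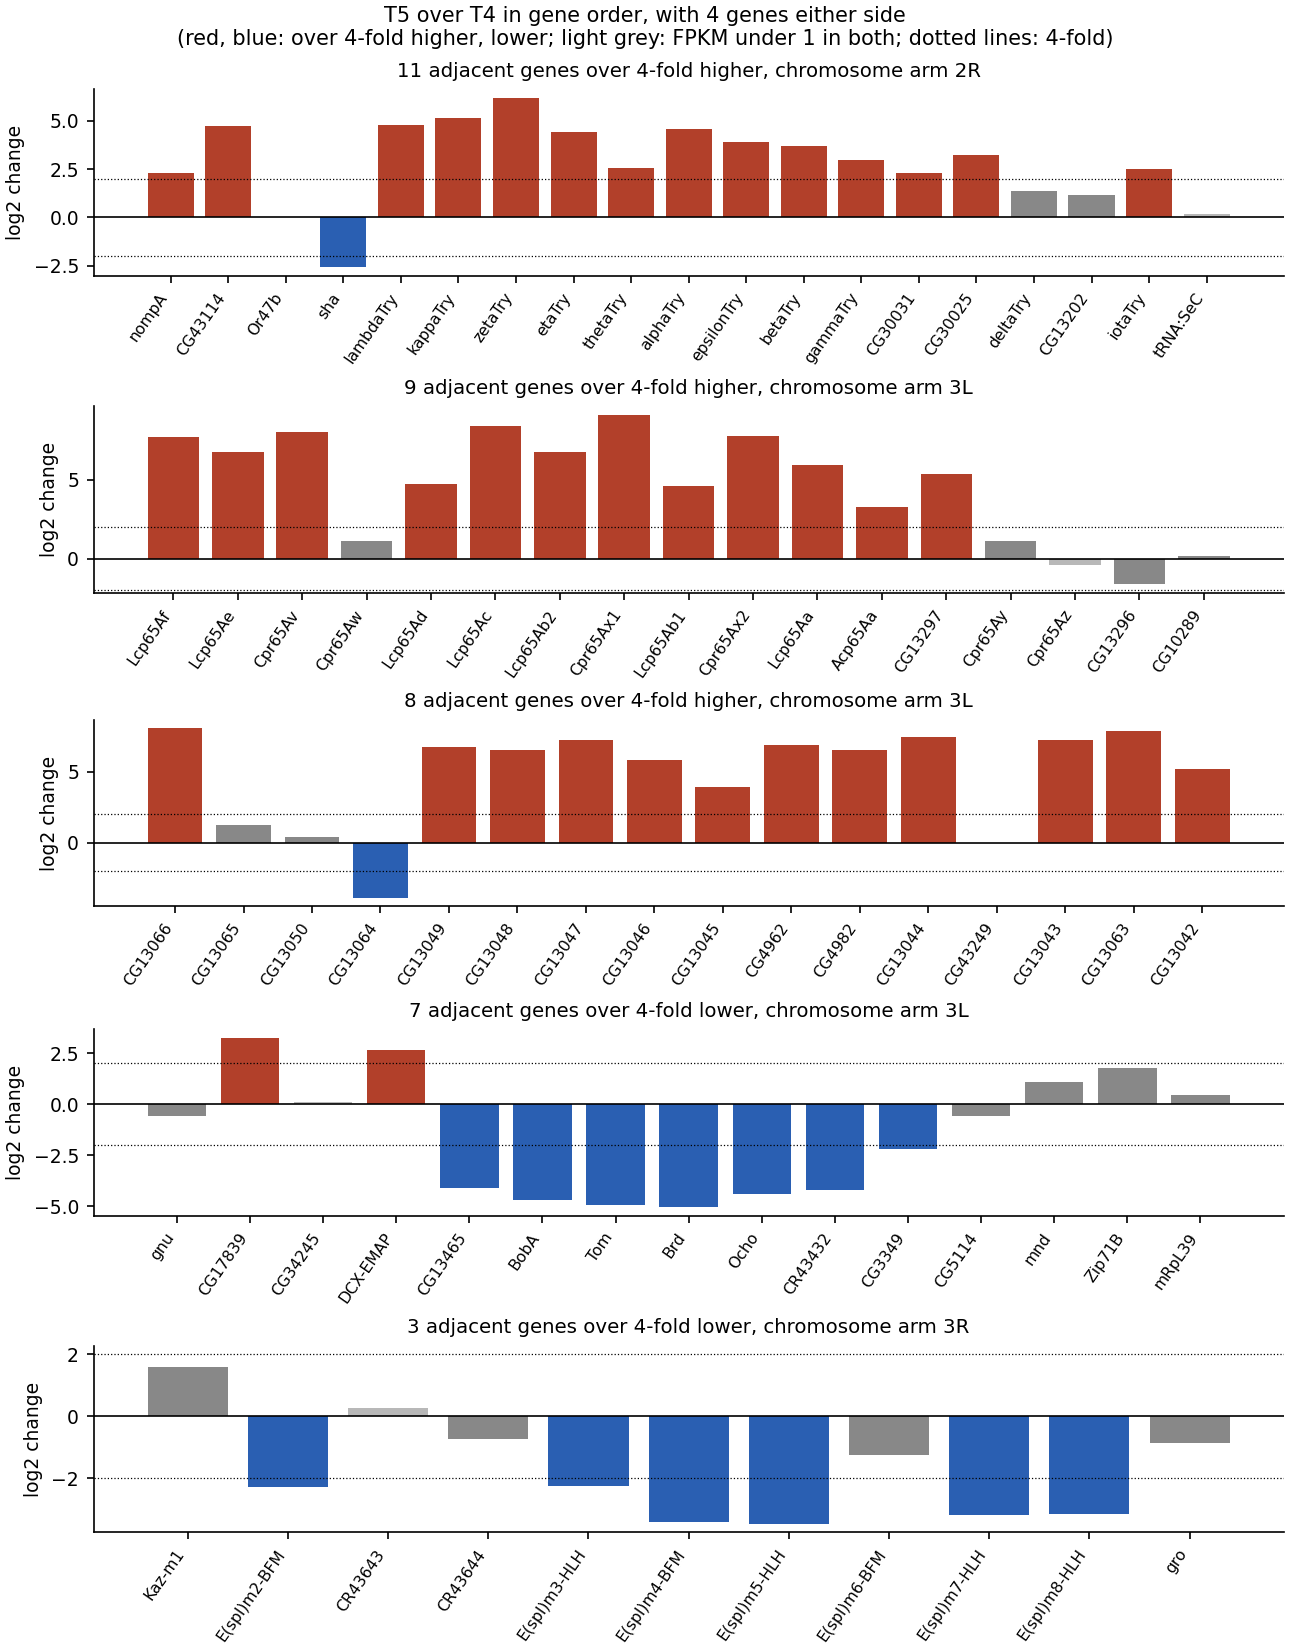
Log2 change from T4 to T5 (vertical axis) of adjacent genes in chromosome order (horizontal axis), for the 3 longest runs over 4-fold higher and the 2 longest over 4-fold lower, each with 4 genes on either side. The 7 genes of the run at the Bearded complex, each over 4-fold lower by the rule for a run, lie between -5.04 and -2.19. A gene with the opposite change adjoins 3 of the runs (sha, CG13064 and DCX-EMAP).

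Outside these lists, several of the deepest losses were in genes with little annotation. *CG43164* had 249 FPKM at T4 (28088 reads) and 5.04 at T5 (362 reads), 49.4-fold lower (44.6 to 55.002), the lowest change of any gene that reached 10 FPKM. *CG10591* had 847 and 29.6, *CG12011* 982 and 38.7, *CG43332* 112 and 2.48, and *yellow-e3* 69.98 and 1.17. *CG43332* and the mucin gene *Muc30E* (38.01 and 0.53) were at or below 3.66 FPKM at every timepoint other than T4. *CG13427*, *CG4440* and *link* were at 1791, 1505 and 669 at T3, 176, 149 and 198 at T4 and 3.41, 6.53 and 7.22 at T5. They were higher again at T6 (78.2, 64.3 and 29.5).

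The miCLIP libraries of the same timepoints gave a second reading of these changes. In miCLIP, fragments bound by an antibody against m6A are sequenced, so both the amount of an RNA and its methylation set how many reads it yields. The miCLIP libraries were separate, but were made from the RNA samples used for mRNA-seq. In all, 9802 of the 10498 genes reached 1 FPKM in a miCLIP library of T4 or T5, and of these 34.5% were over 2-fold higher and 18.4% over 2-fold lower at T5 (median 0.30). Of the 1935 genes over 4-fold higher in mRNA-seq 1762 reached that level, and 95.2% of these were over 2-fold higher in miCLIP. Of the 202 genes over 4-fold lower 199 reached it, and 82.4% were over 2-fold lower. A gene near 0 at T4 mostly passes this filter through its T5 value, so the filter itself favours the share in the higher group. Genes without miCLIP signal were left out, such as *alphaTry* (451 mRNA-seq reads at T5 and 0 in miCLIP). Across genes the changes were related with a Spearman correlation of 0.79 (9802 genes, with the same RNA samples and gene lengths in both assays). *Lcp65Ag2* had 14.2 and 2715 FPKM in miCLIP, *Mf* had 1.90 and 279, *stg* had 310 and 112 and *Brd* had 216 and 16.6. Some falls were smaller in miCLIP than in mRNA-seq: *CG10591* had 202 and 142 against 847 and 29.6, and *Hr46* had 89.3 and 87.3 against 30.6 and 6.63.

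**Figure D5:**
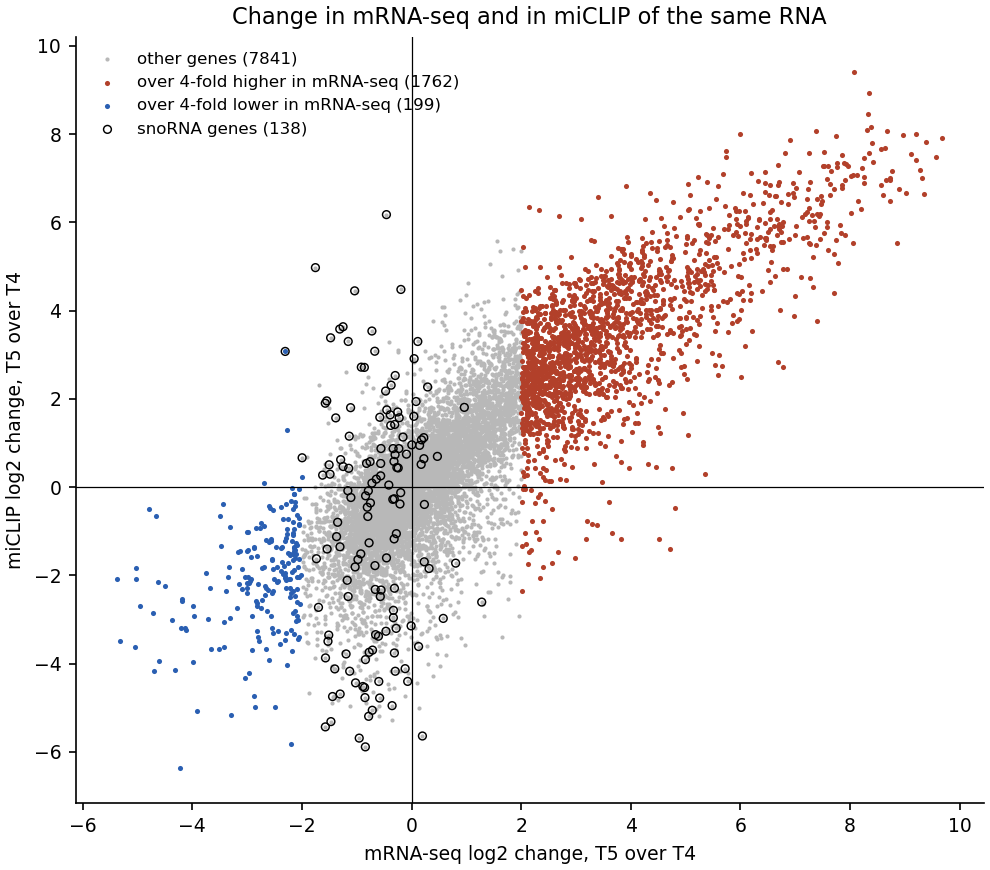
Log2 change from T4 to T5 in mRNA-seq (horizontal axis) and in miCLIP (vertical axis) of the 9802 genes that reached 1 FPKM in a miCLIP library; red and blue mark genes over 4-fold higher or lower in mRNA-seq and open circles snoRNA genes. Red points lie mostly above 0 on the vertical axis (98.0% of 1762) and blue points below it (98.0% of 199), while snoRNA genes spread over both signs in miCLIP. The 1 FPKM filter favours red points above 0, since genes near 0 at T4 mostly pass it at T5.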

How the data were processed

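The authors trimmed adaptors, mapped reads to genome release r5.45, counted them on genes with featureCounts of the Subread suite and normalized with DESeq (the submitters' processing notes also name Novoalign). They deposited FPKM values per gene; gene lengths, library factors and the strand setting of the counting are not given in the sources used here. How reads of overlapping genes and near-identical copies were assigned is therefore not known, and sharing of reads was not tested. mRNA-seq had between 23123641 and 25485022 reads on genes per library, and the miCLIP libraries of T4 and T5 had 6771823 and 11906486.

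Read numbers per gene were worked back from the FPKM, which rise in even steps with each read, and used only for depth, intervals (95%, Clopper-Pearson) and the floor of 3 reads. The miCLIP library of T2 was left out of this step, and 997 genes had no read in any of the other libraries. Changes were computed as log2 ratios with a pseudocount of 1 over genes with FPKM of at least 1 in either library, in Python 3.11.15 with numpy 2.4.6, pandas 2.3.3 and scipy 1.17.1 (figures with matplotlib 3.10.9), and tested on simulated data. With 1 library a timepoint no test was made and no p-value is given.

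The genes, the 49 gene lists and the rules were chosen with earlier results of these data known. Lists were written from general knowledge; after their matches were seen, 3 genes that do not belong (*Cp190*, *Cyp1*, *nesd*) were dropped and the symbols of the mitochondrial genome corrected. Named genes are the 15 highest and 15 lowest changes among genes reaching 10 FPKM, up to 3 members of a list past 2-fold each way with the largest change (or the most abundant member), and the longest runs. Other members are examples chosen after their values were seen. Gene classes, chromosome arms and gene order are from RefSeq (Release 6), names and exons from RefSeq and Ensembl; 14821 symbols matched a class. No coordinates are given, since the builds differ, and the planned search of promoters was not run. Value columns without a library numbered 0. Alternatives were other pseudocounts, filters, scalings, folds and protein-coding genes only; scaling to equal reads on genes was added after seeing the data.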

Additional observations from a re-analysis of the deposited data

How the results depend on the processing

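The balance of all genes and the counts of lists with small changes depended on the scale. Of the 49 lists, 8 medians changed sign and 11 were newly past 2-fold with library sums set to 1000000, and 4 and 7 with equal reads. Of the 21 lists with a median past 2-fold, 19 stayed past 2-fold with library sums set to 1000000, 19 with equal reads on genes, 20 when centred on the median, 20 with the upper quartile, and 14 with a pseudocount of 5; 0 changed sign under any of these. Of 226 named genes past 2-fold, 207 stayed past it with a sum of 1000000, 208 with equal reads and 187 with a pseudocount of 5, and 0 changed sign. For all genes, the counts over 2-fold higher and lower were 3581 and 982 on the deposited scale. They were 2721 and 3275 with a sum of 1000000, 2644 and 2442 with equal reads (chosen after seeing the data), 2887 and 1886 when centred, 3026 and 1817 with the upper quartile, 3882 and 1203 with a pseudocount of 0.1, and 2424 and 516 with a pseudocount of 5. With folds of 1.5 and 4 they were 4551 and 2106, and 1935 and 202. The share of genes past 2-fold that were higher, 78.5% in the main setting, was 45.4%, 51.99%, 60.5%, 62.5%, 76.3% and 82.4% under the first 6 of these settings in turn, and 76.8% with an FPKM of at least 5. The median log2 change of 0.35 was reversed to -0.36 with a sum of 1000000 and to -0.18 with equal reads. It was 0 when centred, 0.020 with the upper quartile, 0.39 and 0.23 with pseudocounts of 0.1 and 5, 0.16 over all genes above 0, and 0.27 with an FPKM of at least 5. No paired analysis was possible because each timepoint has 1 library. Depth limits the folds of genes with few reads at T4, and no alternative replaces the missing replicate.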

Other observations

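Genes that were high at T5 had more signal in the earliest library than in the next. Of the 1858 genes over 4-fold higher at T5 with a value above 0 at T1 or T2, 88.3% were higher at T1 (0 to 45 min) than at T2 (45 to 90 min) and 66.4% over 2-fold higher, against 53.9% and 21.6% of 10167 genes among all tested. The structural cuticle list summed to 261 FPKM at T1, 16.7 at T2 and 34.6 at T3. *TwdlM* had 19.6, 1.34 and 0.18 FPKM in these libraries, *Lcp65Ag2* 32.7, 0.44 and 2.37, and *Jon65Aiv* 0.86, 0.03 and 0.37. The study's methods state that the earliest timepoints are difficult to stage precisely, since eggs can be laid some time after fertilization. Its part in these values was not tested.

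Among classes of non-coding RNA, snoRNA genes had a lower median than protein-coding genes (0.37). Of 148 snoRNA genes tested 44 were over 2-fold lower and 1 higher (median -0.62), at a median of 12 reads at T4 and 4.50 at T5 among the 138 with a miCLIP value. In miCLIP 37 of these 138 were over 2-fold higher and 61 lower. Of 14 tRNA genes 8 were higher and 2 lower in mRNA-seq (median 1.16), of 19 snRNA genes 5 and 0 (0.78) and of 15 miRNA genes 6 and 2 (0.37). Over all genes 34.1% were higher and 9.35% lower in mRNA-seq, and the snRNA and miRNA counts were near these shares. *snoRNA:Me28S-G2173* had 5.05 and 1.44 FPKM in mRNA-seq, from 11 and 2 reads. Its T5 over T4 ratio had an interval from 0.031 to 1.31, which includes no change. In miCLIP it had 8.21 FPKM at T4 (4 reads) and 109 at T5 (65 reads). These RNAs lack a poly(A) tail, and both assays start from poly(A) RNA. Among genes with at least 50 miCLIP reads, 33 changed past 2-fold in opposite directions in the 2 assays, 19 of them higher and 14 lower in mRNA-seq. They include *CG9813* (0.72 and 7.69 FPKM in mRNA-seq). No floor was set on mRNA-seq reads, and the number of genes that met the miCLIP floor is not given. Several of the 14 are snoRNA or tRNA genes whose counting intervals include no change, such as *tRNA:CR31228* (3 and 0 mRNA-seq reads) and *snoRNA:Me28S-U1848* (5 and 0).

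The chromosome arms were near the 34.1% higher of all genes: 30.0% of 1661 genes on X were over 2-fold higher, 36.4% of 2129 on 2R and 36% of 75 on chromosome 4. Adult ovary was near 0: 1 of 19 eggshell and yolk genes reached 1 FPKM (*Yp3*, 1.05 and 1.26). The list of stress-inducible heat shock genes had 3 of 15 members over 2-fold higher (20%, against 34.1% of all genes) and 0 lower, or 1 and 2 with an equal sum, led by the co-chaperone gene *stv*, which acts in muscle (4.31 and 46.0). Of the other lists, septate junction genes had 3 higher and 2 lower of 18 (median -0.35; 0 and 10 with an equal sum), and germ plasm and maternal genes 2 higher and 1 lower of 19 (-0.30; 1 and 9). Cilia genes had 6 higher and 3 lower of 17 (median 0.41), blood cell genes 3 and 1 of 11 (0.40) and fat body genes 1 and 0 of 5 (0.62), and the signs of these 3 medians changed with the scaling of the libraries. The shares higher in these lists were 35.3%, 27.3% and 20%, against 34.1% of all genes. The shares lower were 17.6%, 9.09% and 0%, against 9.35%.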
